A study of Homo sapiens with 8 samples.

Results

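The genes described here are 8 that switch off or restrain MAP kinase signalling, 6 dual-specificity phosphatases (DUSP1, DUSP2, DUSP4, DUSP5, DUSP6 and DUSP10) and 2 Sprouty genes (SPRY1 and SPRY2). They were chosen by name, with earlier results of these data known. Each was found on 1 probe set (a group of array probes summarised to 1 value). The members are thus 8 of the 17709 named probe sets and of 21448 transcript probe sets in all. The question was whether DUSP5 moved alone or together with the other feedback genes when T cell lines were given OR21, a DNA demethylating agent, EPZ-6438 (EPZ), which blocks the histone methyltransferase EZH2, or a combination of them (Comb). RNA came from MT-1 cells, labelled as adult T cell leukaemia, and MT-2 cells, labelled as infected with HTLV-1, the virus behind that leukaemia. MT-1 cells received 500 nM OR21 and 2500 nM EPZ together (Comb), either agent alone at the same dose, or neither (untreated). MT-2 cells received 100 nM OR21 and 500 nM EPZ together, either agent alone at that dose, or neither. Exposure lasted 96 h, with each compound added at seeding and again at 48 h. There was 1 array for each line and treatment, 8 in all, so no difference within a line has a replicate error, and dose and line cannot be told apart.

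Extracellular signal-regulated kinase (ERK) is the last kinase of the Ras, Raf and MEK cascade, which in T cells carries signals from the antigen receptor and from growth factor and cytokine receptors. ERK activity induces its own brakes. DUSP phosphatases remove the phosphates that activate ERK and its relatives p38 and JNK, and Sprouty proteins hold back the cascade upstream, near Ras and Raf. Since these genes are induced by the pathway they restrain, their RNA is widely used as a readout of ERK output, but RNA alone does not give the activity of the kinase.

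Values are log2 RMA levels, and every difference below is in log2 units. The background of an array was the 95th percentile of its 612 negative-control probe sets, which lay between 7.19 and 7.80. Where only 1 of the arrays compared stood above its background, the background level took the place of the dim one, and the difference is written as "at least" or "or lower", and where neither did, no difference is given. Array medians lay between 6.44 and 6.68, and 8126 to 9718 transcript probe sets per array stood above background. Of the T cell markers, CD5 and ZAP70 stood above background on all 8 arrays, while CD2, LCK and the T cell receptor genes CD3D, CD3E and CD3G did so on none, CD4 only in MT-2 and CD28 only in MT-1. Of 13 markers of B, myeloid, NK, epithelial, fibroblast and endothelial cells, 0 to 3 stood above background per array, and the 3 were on the MT-1 Comb array. There KRT18 was at 9.10 and EPCAM at 8.66, both epithelial genes, and the summed level of the list was 77.86 on the MT-1 Comb array, 69.11 with OR21, 66.30 with EPZ and 65.17 in untreated MT-1. In MT-2 the sum ran from 72.31 to 75.09 with treatment and was 71.36 in untreated cells. T cell genes also differed with Comb. CD28, a costimulatory receptor, was at 8.72 with Comb and 12.80 untreated in MT-1, the lowest difference of all probe sets kept (-4.08). LAT, the adaptor that links the T cell receptor to Ras, was at 11.86 with Comb and 8.61 untreated in MT-1, and CD5 was at 12.22 with Comb and 10.64 untreated in MT-2. The part of these genes in the results was not tested.

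One of the agents removes DNA methylation, which sits on CpG dinucleotides, so promoter sequences are shown for 2 members with a higher signal under Comb in MT-1 (DUSP6 and SPRY1, which has 2 start sites) and for DUSP1, whose level had a range of 0.25 over the MT-2 arrays. Each run of 300 bases, from RefSeq (GRCh38.p14), covers 250 bases before the transcription start and 50 after it, 5′ to 3′ on the strand of the gene, with CpG in capitals. DUSP6 is at chr12:89352452-89352751 (minus strand), the SPRY1 starts are at chr4:123396545-123396844 and chr4:123398136-123398435 (plus strand), and DUSP1 is at chr5:172771146-172771445 (minus strand).
DUSP6: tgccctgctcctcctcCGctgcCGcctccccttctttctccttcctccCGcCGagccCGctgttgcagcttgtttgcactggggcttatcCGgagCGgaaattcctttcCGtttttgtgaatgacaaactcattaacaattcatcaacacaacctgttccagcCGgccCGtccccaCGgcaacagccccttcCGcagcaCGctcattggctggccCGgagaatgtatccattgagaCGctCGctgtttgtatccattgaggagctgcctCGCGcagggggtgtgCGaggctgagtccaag
SPRY1 start 1: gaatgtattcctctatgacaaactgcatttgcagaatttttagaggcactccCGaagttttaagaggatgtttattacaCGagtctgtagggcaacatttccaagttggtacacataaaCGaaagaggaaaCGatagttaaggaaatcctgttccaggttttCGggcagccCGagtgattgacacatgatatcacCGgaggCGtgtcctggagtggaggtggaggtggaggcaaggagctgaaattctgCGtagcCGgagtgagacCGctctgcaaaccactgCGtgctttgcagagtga
SPRY1 start 2: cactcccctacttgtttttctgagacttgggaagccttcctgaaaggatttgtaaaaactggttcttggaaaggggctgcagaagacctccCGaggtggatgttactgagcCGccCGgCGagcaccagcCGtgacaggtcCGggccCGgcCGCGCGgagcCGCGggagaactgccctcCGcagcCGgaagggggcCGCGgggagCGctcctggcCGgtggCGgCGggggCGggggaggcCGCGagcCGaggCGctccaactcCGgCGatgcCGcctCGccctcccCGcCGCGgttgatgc
DUSP1: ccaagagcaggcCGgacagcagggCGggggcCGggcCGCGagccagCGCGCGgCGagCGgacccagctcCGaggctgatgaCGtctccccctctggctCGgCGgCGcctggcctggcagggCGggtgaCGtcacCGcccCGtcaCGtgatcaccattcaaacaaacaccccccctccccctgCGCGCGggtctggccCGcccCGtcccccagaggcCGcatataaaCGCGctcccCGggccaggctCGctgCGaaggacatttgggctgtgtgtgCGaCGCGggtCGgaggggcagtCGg

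The DUSP6 window held 19 CpGs, a count that 42.9% of the 35116 promoter windows reached or passed. The SPRY1 windows held 12 (53.1%) and 32 (18.9%), and DUSP1 held 36 (12.7%). DUSP2, not printed, held 35 (14.1%), the 2 DUSP10 windows 19 and 8, and the 3 SPRY2 windows 30, 15 and 6. DUSP4 and DUSP5 had no window and could not be counted or searched, so the 10 member windows come from 6 members. The median over all windows was 14. The windows of DUSP6 and SPRY1 thus lay on both sides of the median, and those of DUSP1 and DUSP2 held the most CpGs of the 10. The cyclic AMP response element TGACGTCA, searched on both strands, was found in 1 of the 10 member windows, that of DUSP1, and in 1.85% of all windows. None of the 10 held the AP-1 site TGANTCA (7.71% of all windows), the ETS site CCGGAAGT (4.14%) or a CArG box (1.29%), which says only that these letters are not in these windows.

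DUSP5, a nuclear phosphatase that acts on ERK alone, was higher with Comb and with OR21 in both lines. In MT-1 cells its level was 10.68 with Comb, 8.39 with OR21, 7.12 with EPZ and 7.07 untreated. In MT-2 cells it was 12.09 with Comb, 11.59 with OR21, 11.06 with EPZ and 9.92 untreated. In MT-1 the EPZ and untreated arrays were not above background, while all 4 MT-2 arrays were, and each MT-2 array was higher than any MT-1 array except that the untreated MT-2 level lay below the MT-1 Comb level. Comb exceeded untreated by at least 3.23 in MT-1 cells and by 2.18 in MT-2 cells. With OR21 alone the excess over untreated was at least 0.93 in MT-1 cells and 1.67 in MT-2 cells. The EPZ level exceeded the untreated one by 1.15 in MT-2, and in MT-1 both were under background. In bulk RNA, more cells expressing a gene and more RNA per cell cannot be told apart.

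Set against the single agents, Comb carried more DUSP5 than OR21 by 2.30 in MT-1 cells and 0.50 in MT-2 cells, and more than EPZ by at least 3.42 in MT-1 cells and by 1.03 in MT-2 cells. On the log2 scale, Comb minus what OR21 and EPZ gave when added up was 2.25 in MT-1, where it rests on 2 levels under background, and -0.64 in MT-2. Of the 12942 probe sets kept by a filter on low values (all 8 members among them), 207 in MT-1 cells and 88 in MT-2 cells had a Comb minus untreated difference at least as high as that of DUSP5, itself included. Fitted over both lines, DUSP5 was higher with Comb than untreated by 2.89 ± 0.55 (SE, 8 arrays, limma adjusted p = 0.155), in 2 of 2 lines. The estimate against EPZ was 2.30 ± 0.55 (adjusted p = 0.401), against OR21 1.40 ± 0.55 (adjusted p = 0.698), and for OR21 against untreated 1.49 ± 0.55 (adjusted p = 0.587). None of these passed the threshold. With the MT-2 Comb array left out, the MT-1 array alone stands for Comb. The estimates were then 3.85 against untreated, 3.26 against EPZ and 2.36 against OR21, the last more than 1.5 times that of all arrays. With the MT-1 Comb array left out, they were 1.93, 1.34 and 0.44.

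**Figure D1:**
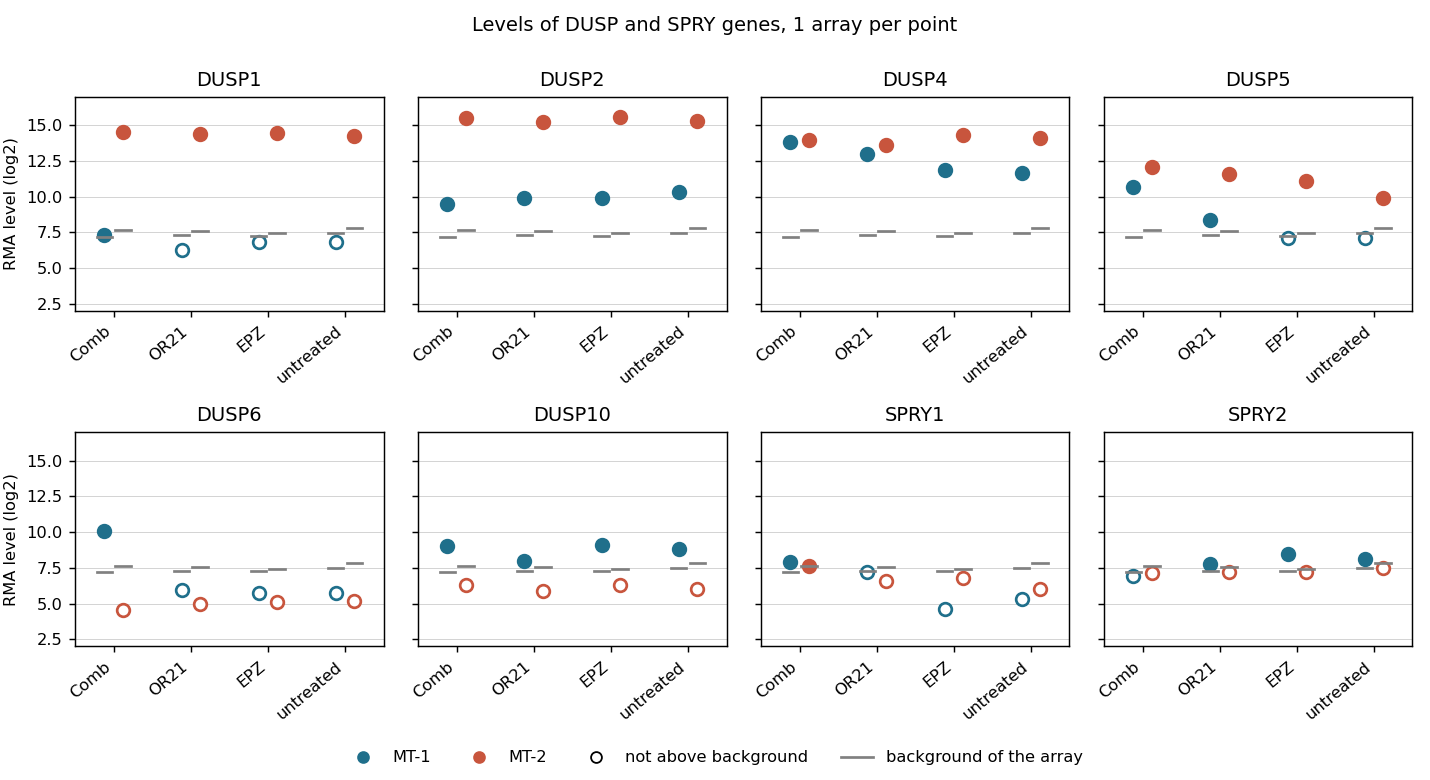
Log2 RMA levels of the 8 genes (y axis) by treatment (x axis), with 1 point per array, MT-1 in blue and MT-2 in red, open where the level was not above the background of its array (grey dashes). The Comb level of DUSP5 exceeds its untreated level in both lines, by 2.18 in MT-2, while DUSP6 leaves background on the MT-1 Comb array alone.

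DUSP6, the cytoplasmic phosphatase specific for ERK, was seen on 1 array. In MT-1 cells it stood at 10.10 with Comb, 5.96 with OR21, 5.75 with EPZ and 5.74 untreated. In MT-2 cells it stood at 4.57 with Comb, 4.99 with OR21, 5.13 with EPZ and 5.19 untreated. Comb in MT-1 was thus higher than untreated by at least 2.64, than OR21 by at least 2.80 and than EPZ by at least 2.83, and no difference was measured in MT-2. As deposited, 20 probe sets of 12942, DUSP6 included, had a Comb minus OR21 difference in MT-1 as high as that of DUSP6 (4.13). Over both lines the estimate for Comb against untreated was 1.87 ± 1.20 (SE, 8 arrays, limma adjusted p = 0.414). Left without the MT-2 Comb array, so that the MT-1 array alone stands for Comb, it was 4.28. That value uses levels under background, against which the MT-1 bound was at least 2.64. Leaving out the MT-1 Comb array turned the estimate to -0.54, and leaving out an untreated array gave 0.96 (MT-1) or 2.79 (MT-2).

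DUSP4, a nuclear phosphatase of ERK and JNK, was above background on all 8 arrays, and its highest array was Comb in MT-1 and EPZ in MT-2. In MT-1 cells its level was 13.81 with Comb, 12.99 with OR21, 11.90 with EPZ and 11.65 untreated. In MT-2 cells it was 13.96 with Comb, 13.62 with OR21, 14.32 with EPZ and 14.10 untreated. Comb was higher than untreated by 2.17 in MT-1 cells and differed by -0.14 in MT-2 cells, and OR21 alone by 1.34 in MT-1 cells and -0.48 in MT-2 cells. Comb was higher than OR21 by 0.83 in MT-1 cells and 0.34 in MT-2 cells, and against EPZ it differed by 1.92 in MT-1 cells and -0.36 in MT-2 cells. Whether the lines' responses differ was not tested, since 1 array per line and treatment leaves no error for it. The MT-1 Comb level came within 0.15 of the MT-2 Comb level, while the untreated lines stood 2.45 apart. Over both lines Comb against untreated was 1.01 ± 0.62 (SE, 8 arrays, limma adjusted p = 0.394), with leave-one-array-out values from 0.17 without the MT-1 Comb array to 1.86 without the MT-2 Comb array.

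DUSP1 and DUSP2, the remaining inducible nuclear phosphatases, differed by less than 0.5 between the 4 arrays of MT-2. DUSP1, an early-response phosphatase with a preference for p38 and JNK, was at 14.52 with Comb, 14.37 with OR21, 14.46 with EPZ and 14.27 untreated in MT-2 cells. In MT-1 cells it was at 7.30 with Comb, just above background, and at 6.27 with OR21, 6.79 with EPZ and 6.81 untreated, all under it. Its range over the MT-2 arrays was 0.25. DUSP2, a phosphatase of ERK and p38 found mainly in blood cells, was at 15.48 with Comb, 15.25 with OR21, 15.60 with EPZ and 15.27 untreated in MT-2 cells. In MT-1 cells it was at 9.48 with Comb, 9.94 with OR21, 9.88 with EPZ and 10.30 untreated, so that all 3 treated arrays lay below the untreated one. Comb differed from untreated by -0.83 in MT-1 cells and 0.21 in MT-2 cells. The estimates over both lines were 0.37 ± 0.26 for DUSP1 (adjusted p = 0.452) and -0.31 ± 0.29 for DUSP2 (SE, 8 arrays, limma adjusted p = 0.571), and neither passed. Without the MT-1 Comb array or the untreated MT-1 array, that of DUSP2 turned to 0.03 and 0.05. That of DUSP1 was 0.63 without the MT-2 Comb array and 0.10 without the MT-1 Comb array.

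DUSP10, which acts on p38 and JNK rather than ERK, was above background in MT-1 only. Its MT-1 levels were 8.99 with Comb, 7.97 with OR21, 9.06 with EPZ and 8.80 untreated, against 5.86 to 6.33 on the 4 MT-2 arrays. The OR21 array was the lowest of MT-1, at -0.82 against untreated, and Comb was 1.02 above it and 0.20 above untreated. Over both lines the estimate of Comb against OR21 was 0.74 ± 0.24 (SE, 8 arrays, limma adjusted p = 0.697), with all MT-2 levels under background. It was 0.43 without the MT-1 OR21 array and 1.06 without the MT-2 OR21 array.

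The 2 Sprouty genes went apart in MT-1. SPRY1 was at 7.88 with Comb, 7.23 with OR21, 4.61 with EPZ and 5.28 untreated in MT-1 cells, and at 7.66 with Comb, 6.59 with OR21, 6.80 with EPZ and 5.9985 untreated in MT-2 cells. In each line the Comb array was the highest and the only one above background, by a small margin. Against background, Comb was higher than untreated by at least 0.42 in MT-1. The MT-2 Comb level did not exceed the background of the untreated MT-2 array, so no difference is given there. As deposited, the differences were 2.60 in MT-1 cells and 1.66 in MT-2 cells, and the estimate over both lines was 2.13 ± 0.64 (SE, 8 arrays, limma adjusted p = 0.195). With levels under background set to it, that estimate was 0.14 (adjusted p = 0.62), so its size rests on levels under background. Against EPZ the estimate was 2.06 ± 0.64 (adjusted p = 0.422), and it was 0.94 without the MT-1 EPZ array and 3.18 without the MT-2 EPZ array. Both EPZ levels were under background, and the bounds for Comb against EPZ were at least 0.61 (MT-1) and at least 0.22 (MT-2). SPRY2 was at 6.95 with Comb, 7.73 with OR21, 8.45 with EPZ and 8.14 untreated in MT-1 cells, and at 7.14 to 7.47 on the MT-2 arrays, none of them above background. In MT-1 the Comb array alone was under background, at -0.95 or lower against untreated and -1.26 or lower against EPZ. The estimate over both lines was -0.77 ± 0.34 (adjusted p = 0.283), -1.27 without the MT-2 Comb array and -0.27 without the MT-1 Comb array.

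**Figure D2:**
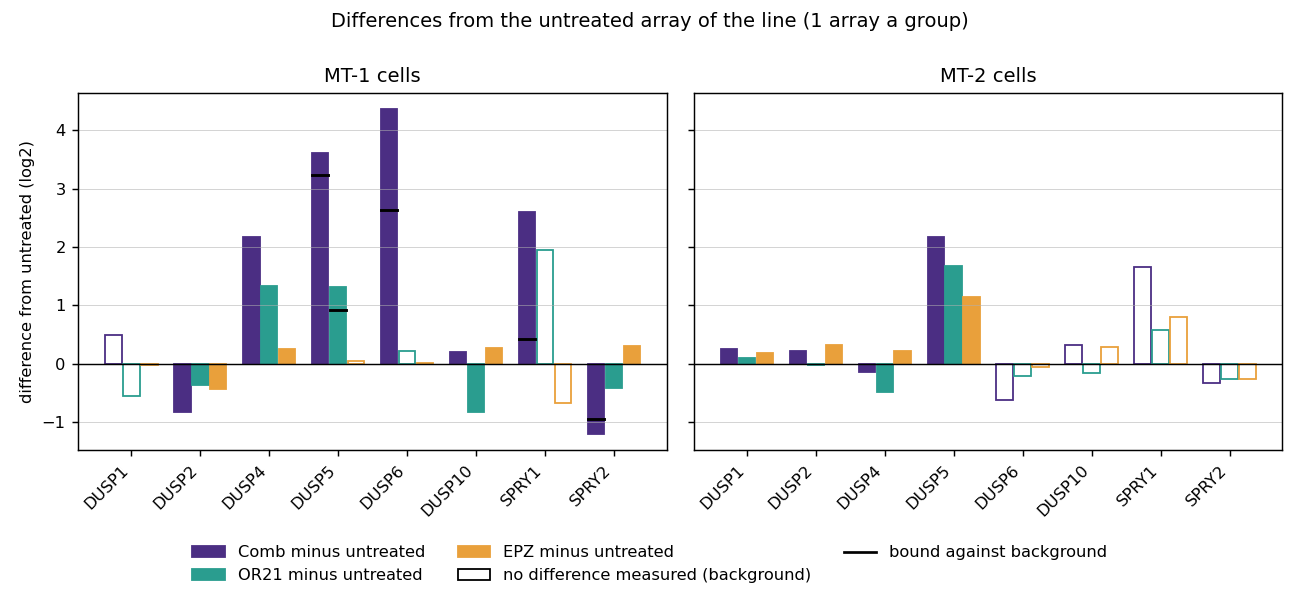
Differences of each treated array from the untreated array of its line (y axis, log2, as deposited) for the 8 genes, with white bars where no difference could be measured against background and black ticks at the bound where 1 of the arrays was under it. Comb bars for DUSP4, DUSP5, DUSP6 and SPRY1 pass 1 in MT-1. The measured Comb bar past 1 in MT-2 is that of DUSP5, at 2.18.

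Counted at 1 log2 unit or more as deposited, 4 of the 8 members were higher with Comb than untreated in MT-1 (DUSP4, DUSP5, DUSP6 and SPRY1), where 11.2% of the 12942 probe sets were, and 1 was lower (SPRY2), where 9.64% were. In MT-2, 2 members were higher (DUSP5 and SPRY1, the second not above the background of both arrays), where 5.05% were, and 0 were lower, where 1.95% were. The median difference of the members was 1.33 in MT-1 cells and 0.23 in MT-2 cells, beside -0.05 and -0.02 over all probe sets tested. With OR21 alone, 3 members were higher in MT-1 (DUSP4, DUSP5 and SPRY1), where 5.35% were. Of these, SPRY1 was under background and DUSP5 had a bound of at least 0.93. In MT-2, 1 was higher (DUSP5), where 2.36% were. With EPZ alone, 0 members were higher in MT-1, where 1.03% were, and 1 in MT-2 (DUSP5), where 0.896% were. No member was lower by that much with OR21, where 3.75% of the probe sets were in MT-1 and 1.69% were in MT-2, or with EPZ, where 0.294% were in MT-1 and 0.355% were in MT-2. DUSP5 was the member with a difference of 1 or more as deposited in both lines with OR21, which 0.634% of the probe sets had. Held to the bounds, DUSP5 passed that mark with OR21 in MT-2 only. With EPZ, 0 members had such a difference in both lines, which 0.0464% had. DUSP5 and SPRY1 had one in both lines with Comb, which 1.79% had. Held to the bounds against background, a Comb difference of 1 or more was shared with DUSP5 in MT-1 by DUSP4 (2.17) and DUSP6 (at least 2.64), on the array that also carried KRT18 and EPCAM above background, and in MT-2 by no other member. SPRY1 is not in that count, at a bound of at least 0.42 in MT-1 and with no difference measured in MT-2.

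Adding EPZ to OR21 (Comb minus OR21), MT-1 had 4 members higher by 1 or more (DUSP1, DUSP5, DUSP6 and DUSP10), where 5.77% of the probe sets were, and 1 in MT-2 (SPRY1), where 2.4% were. Of the members 0 were lower, where 1.38% were in MT-1 and 0.989% were in MT-2, and 0 were higher in both lines, where 0.417% were. DUSP1 and SPRY1 passed this mark only as deposited, since their bounds against background were at least 0.01 and at least 0.09. Adding OR21 to EPZ (Comb minus EPZ), 4 were higher in MT-1 (DUSP4, DUSP5, DUSP6 and SPRY1), where 9.46% were, and 1 was lower (SPRY2), where 6.15% were, while 1 was higher in MT-2 (DUSP5), where 2.79% were, and 0 were lower, where 0.881% were. DUSP5 was higher in both lines, where 1% were. SPRY1 again passed only as deposited, with a bound of at least 0.61. These comparisons share arrays and are not independent of each other.

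Over both lines, limma called 0 of the 8 members and 0 of the 12942 probe sets (0% each way) for any treatment comparison. At an unadjusted p under 0.05, 2489 probe sets and 2 members (DUSP5 and SPRY1) passed for Comb against untreated, 1079 and 1 for OR21, 285 and 0 for EPZ, 917 and 2 for Comb against OR21, 1373 and 2 for Comb against EPZ, and 223 and 0 for that excess of Comb over OR21 and EPZ added up. The spread in these tests comes from how far the responses of the lines lie apart, doses included. Without the MT-2 Comb array, the MT-1 array alone stands for Comb. The calls for Comb from that fit are listed only with the checks on processing, and are not read as results. With an intensity trend limma called 10 probe sets and 0 members for Comb against untreated.

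**Figure D3:**
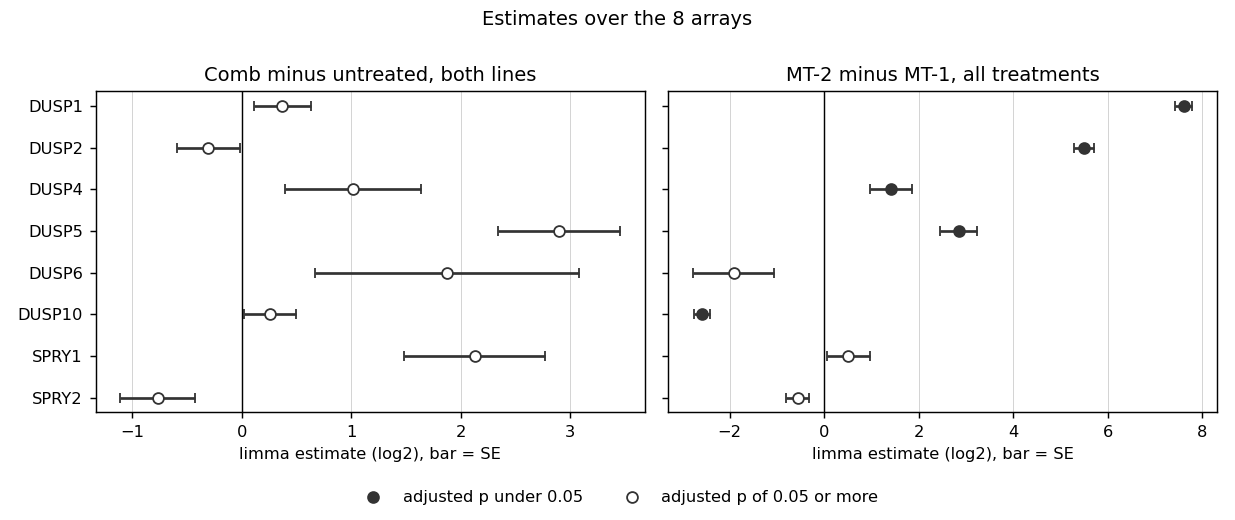
limma estimates (x axis, log2) with their SE for the 8 genes (y axis), for Comb minus untreated over both lines (left) and for MT-2 minus MT-1 over all treatments (right), from 8 arrays. No estimate on the left has an adjusted p under 0.05, and on the right DUSP1, DUSP2, DUSP4, DUSP5 and DUSP10 do (filled points).

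Of the 8 members, 5 differed between the lines. In this comparison the 4 treatments serve as the replicates of a line. Over all treatments, DUSP1 averaged 14.40 in MT-2 and 6.80 in MT-1, a difference of 7.61 ± 0.18 (SE, 8 arrays, limma adjusted p = 3.18e-06), and 7.07 with the levels under background set to it. DUSP2 averaged 15.40 in MT-2 and 9.90 in MT-1, a difference of 5.50 ± 0.20 (adjusted p = 8.82e-06). DUSP5 averaged 11.16 in MT-2 and 8.32 in MT-1, a difference of 2.85 ± 0.39 (adjusted p = 0.00117). DUSP4 averaged 14.0002 in MT-2 and 12.59 in MT-1, a difference of 1.41 ± 0.44 (adjusted p = 0.0297). DUSP10 went the other way, at a mean of 6.12 in MT-2 and 8.71 in MT-1, a difference of -2.58 ± 0.17 (adjusted p = 6.13e-05). Since no MT-2 array was above background, only -1.10 or lower was measured. Of these 5, DUSP1, DUSP2, DUSP4 and DUSP5 were higher in MT-2 at each treatment, and DUSP10 was higher in MT-1 at each. How many of all probe sets kept the same direction at each treatment was not counted. That trait can thus not be called particular to these genes. DUSP6 (adjusted p = 0.0918), SPRY1 (0.358) and SPRY2 (0.0844) did not pass.

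Of the 12942 probe sets, 22.7% were called higher and 40.7% lower in MT-2, so 4 members higher and 1 lower stand beside a background in which most probe sets differed. Cyclic loess turned the split of calls over all probe sets from 2939 higher and 5267 lower to 3915 and 3954, and moved the median difference over them from -0.30 to -0.01, while the 5 called members kept their direction and call, DUSP1 at 8.11 and DUSP10 at -2.42. The call of DUSP4 was lost without the untreated array of either line (difference 1.07, adjusted p = 0.098) and without the EPZ array of either line (1.08, adjusted p = 0.106). DUSP6 (-0.71, adjusted p = 0.0125) and SPRY2 (-0.81, adjusted p = 0.0136) passed without the Comb array of either line. For DUSP6, no difference between the lines was measured at the other treatments, where both lines were under background. SPRY2 was under background on each MT-2 array, so over all arrays only -0.27 or lower was measured.

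Further brakes of the pathway were examined as a list of 18 genes, 17 of them on the array and 14 kept by the filter. With Comb in MT-1, 5 of the 14 were higher by 1 or more (4 of them above background), where 11.2% of all probe sets were, and 1 was lower, where 9.64% were, with a median of 0.84. In MT-2, 4 were higher as deposited, where 5.05% were, and 1 was lower, where 1.95% were, with a median of 0.24. Of the 4, 3 had at least 1 array above background, among them DUSP16, whose bound fell short of 1. SPRED2, a Sprouty-related inhibitor of Raf activation, was at 11.45 with Comb, 10.51 with OR21, 10.05 with EPZ and 9.69 untreated in MT-1 cells. In MT-2 cells it was at 9.37 with Comb, 8.63 with OR21, 8.80 with EPZ and 8.15 untreated, so Comb was the highest array and untreated the lowest in each line. ERRFI1, an inhibitor of the EGF receptor family, was at 10.74 with Comb and 8.67 with OR21 in MT-1, against 4.97 with EPZ and 4.80 untreated, a Comb difference of at least 3.28. It was under background throughout MT-2. DUSP9, a cytoplasmic ERK phosphatase, was higher with Comb by at least 1.30 in MT-1 cells and differed by -0.33 in MT-2 cells. In MT-2, DUSP3, a small atypical phosphatase, was at least 1.43 higher with Comb, beside 0.22 in MT-1. DUSP16, a phosphatase of JNK and p38, was at least 0.24 higher in MT-2, beside at least 0.02 in MT-1. PEBP1, which binds Raf-1 and restrains it, was lower by 1 or more in both lines, at -1.08 in each.

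Of 22 listed early genes that ERK induces, 21 were on the array and 20 kept. In MT-1, 13 lay 1 or more above untreated with Comb as deposited, where 11.2% of all probe sets did. Below by as much lay 1, where 9.64% did, and the median was 1.23. For 12 of the 13, at least 1 of the 2 arrays was above background. Among these, JUN (7.88 with Comb) and CCND1 (7.93) stood less than 1 above the untreated background (7.46), so their bounds fell short of 1. In MT-2, 0 were higher and 0 lower, where 5.05% and 1.95% of all probe sets were, with a median of 0.29. The difference between the lines was not tested. ETV5, an ETS factor induced by ERK, was at 11.43 with Comb, 9.44 with OR21, 3.48 with EPZ and 3.55 untreated in MT-1 cells, a Comb difference of at least 3.97, and was under background in MT-2. IER3, an early-response gene that modulates survival, was at 10.31 with Comb in MT-1, against 5.81 untreated (at least 2.85 higher), and at 13.69 with Comb in MT-2, against 13.07 untreated. PHLDA1, another early-response gene, was at 11.79 with Comb in MT-1, against 8.07 untreated, a difference of 3.72, and was under background in MT-2. EGR1, an early zinc finger factor, was chosen after its values were seen, as a common readout of ERK activity. It was at 10.86 with Comb in MT-1, against 8.74 untreated, and at 13.98 with Comb in MT-2, against 13.96 untreated. FOS, ETV4 and JUNB, of the same list, were added in the same way. In MT-1, FOS was under background on each array. ETV4 was at 9.08 with Comb there, against 8.78 untreated, and JUNB at 10.17, against 10.94 untreated. MYC was the lowest of the list in both lines, at -2.21 in MT-1 cells and -0.95 in MT-2 cells.

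Of 21 listed kinases and adaptors that carry the signal, 16 were on the array and kept, of which 2 were higher with Comb by 1 or more in MT-1 (the Ras activators SOS1 by 1.23 and SOS2 by 1.16) and 2 lower (HRAS by -1.03 and RPS6KA1, a kinase activated by ERK, by -1.40), where 11.2% of all probe sets were higher and 9.64% lower. In MT-2 there were 0 either way, where 5.05% were higher and 1.95% lower, and the medians were -0.17 in MT-1 cells and -0.12 in MT-2 cells. Of 10 p38 and JNK pathway kinases, 7 were on the array and 6 kept, with 0 higher or lower by 1 or more with Comb in either line (medians -0.54 in MT-1 cells and -0.06 in MT-2 cells). The 7 reference genes on the array, all kept, also gave 0, with medians of -0.10 and -0.01. None of these lists had a gene called by limma for a treatment.

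**Figure D4:**
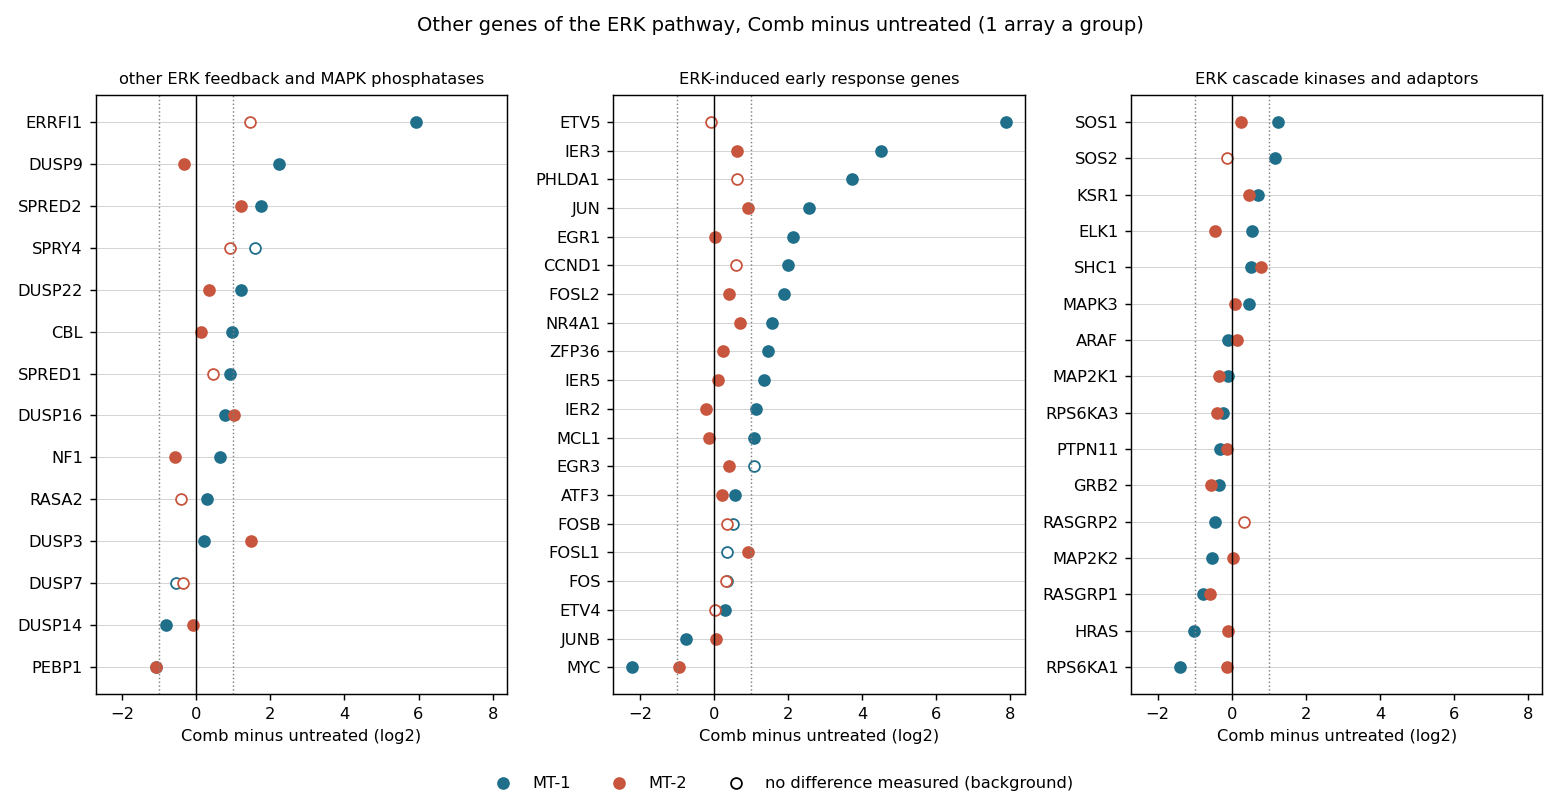
Comb minus untreated (x axis, log2, as deposited) for the kept genes of 3 ERK pathway lists (y axis), MT-1 in blue and MT-2 in red, filled also where only a bound holds, open where no difference could be measured against background, and dotted lines at 1 and -1. In the middle panel 13 MT-1 points lie beyond 1 and 0 MT-2 points do, and in the left panel SPRED2 lies beyond 1 in both lines.

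To see which genes shared the pattern of DUSP5, levels were centred on the mean of each line and correlated with those of DUSP5 over the 8 arrays, among 2136 other named genes above background on at least 1 array of each line and with a range of 1 or more within a line. The highest values were those of AKAP12, a scaffold protein of kinase A (r = 0.99), BCL6, a transcriptional repressor of lymphocytes (r = 0.99), STING1, the adaptor of cytosolic DNA sensing (r = 0.99), CACNB3, a calcium channel subunit (r = 0.98), and RRM2B, a ribonucleotide reductase subunit induced by p53 (r = 0.98). These arrays share lines and treatments and the genes were picked for r, so no p is given. BCL6 was at 11.97 with Comb, 10.05 with OR21, 9.35 with EPZ and 9.11 untreated in MT-1 cells. In MT-2 cells it was at 13.69 with Comb, 13.24 with OR21, 13.00 with EPZ and 12.40 untreated, so its order of treatments was that of DUSP5 in each line. STING1 was at 10.36 with Comb in MT-1, against 6.74 untreated (under background), and at 12.62 with Comb in MT-2, against 10.55 untreated. Of the feedback genes, SPRED2 was the nearest (r = 0.96, rank 24), followed by DUSP22, an atypical phosphatase (r = 0.94, rank 41). Among the members, SPRY1 ranked 146 (r = 0.89), DUSP4 476 (r = 0.75) and DUSP1 722 (r = 0.55), and the other 4 did not meet the conditions for ranking. SPRY1 met the background condition in each line only through its Comb array, as did DUSP1, AKAP12 and CACNB3 in MT-1. Their entry thus depended on the arrays where DUSP5 was highest, and their r rests partly on levels under background.

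**Figure D5:**
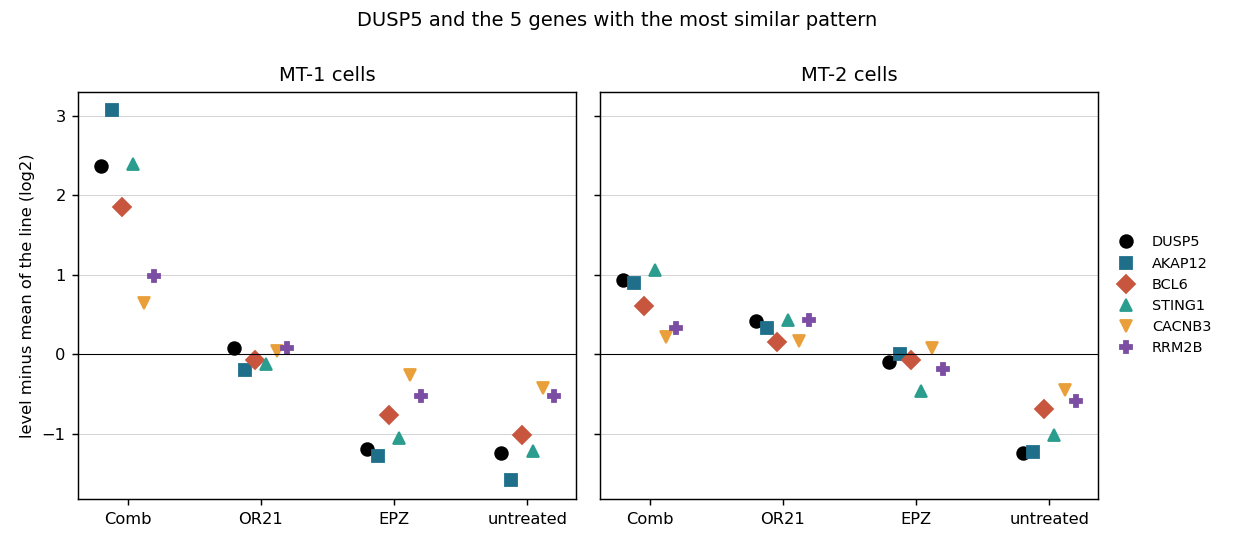
Levels minus the mean of the line (y axis, log2) by treatment (x axis) for DUSP5 and the 5 genes correlated most highly with it, MT-1 left and MT-2 right, 1 point per gene and array. All 6 genes are highest with Comb in MT-1 and lowest or next to lowest when untreated, and RRM2B is the gene whose MT-2 OR21 level (12.80) exceeds its MT-2 Comb level (12.69).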

How the data were processed

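The deposited table holds log2 values of 8 one-colour Affymetrix arrays, made by the authors with RMA per the submitters' processing notes. Version, annotation release and any later rescaling are not stated in the labels, and log base 2 is assumed as usual for RMA (values 2.14 to 18.91). Of 24351 entries, 2903 controls were left out. Symbols came from a platform annotation table and gene positions from RefSeq (GRCh38.p14). Probe sets whose highest value reached the median of the table (6.573) were kept. limma 3.58.1 (R 4.3.3, lmFit and eBayes) fitted terms for line and treatment over the 8 arrays (3 residual degrees of freedom), with Benjamini-Hochberg adjustment over 12942 probe sets and calls under 0.05. Within a line nothing was tested. On simulated data for Comb minus untreated (12942 probe sets), equal changes were added to the Comb arrays of both lines, in 50 probe sets per size. There 12% of added changes of 1, 60% of changes of 2 and 90% of changes of 4 log2 units were called. These rates do not cover responses that differ between the lines. All members are named. Other listed genes were named where Comb minus untreated was among the 3 highest or 3 lowest of a list in a line, 1 or more in size, with an array above background. Markers that check the cell type and DUSP22 were named besides, as were EGR1, FOS, ETV4, JUNB, JUN and CCND1 after their values were seen. The labels do not say whether lines were cultured more than once, so p-values measure the spread between these arrays. Alternatives were no filter, median centring, cyclic loess, an intensity trend, each array left out, a threshold of 0.5, the 99th percentile as background, and background as a floor. The members and lists were chosen with earlier results of these data known.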

Additional observations from a re-analysis of the deposited data

Results flagged for a closer look

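In DUSP2 and DUSP4, the members above background on all arrays compared in both lines, some differences had opposite signs in the 2 lines, with 1 array per line and treatment, so the difference between lines was not tested. DUSP4 differed with Comb against untreated by 2.17 in MT-1 cells and -0.14 in MT-2 cells, with OR21 against untreated by 1.34 in MT-1 cells and -0.48 in MT-2 cells, and with Comb against EPZ by 1.92 in MT-1 cells and -0.36 in MT-2 cells. DUSP2 differed with Comb against untreated by -0.83 in MT-1 cells and 0.21 in MT-2 cells, with EPZ against untreated by -0.42 in MT-1 cells and 0.33 in MT-2 cells, and with Comb against OR21 by -0.46 in MT-1 cells and 0.24 in MT-2 cells.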

How the results depend on the processing

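No paired analysis was possible because the labels give no replicate numbers; the cell line was a term of the fit instead. Leaving out 1 array in turn gave 0 to 740 calls over all probe sets for Comb against untreated, 0 to 231 against EPZ, 0 to 72 against OR21 and 0 to 7 for the excess, and 0 to 2, 0 to 2, 0 to 1 and 0 to 1 members called, every call coming without the MT-2 Comb array. Without that array the MT-1 array alone stands for Comb, so those calls rest on 1 Comb array and are not read as results. With an intensity trend, 10 probe sets were called for Comb against untreated. Over the same arrays left out, the estimate of Comb against untreated ran from -0.66 to 0.0504 for DUSP2 and from -0.54 to 4.28 for DUSP6, and MT-2 minus MT-1 ran from -0.0485 to 0.89 for SPRY1. With levels under background set to it, SPRY1 turned to -0.16 with OR21 in MT-1 (a difference of array backgrounds by construction) and to -0.15 with Comb in MT-2 (its Comb level minus the untreated background). That floor left 1 member higher in MT-2 with Comb, 0 lower in MT-1 with Comb, 0 higher in MT-2 for Comb against OR21 and 1 higher in MT-1 with OR21. With arrays centred on their medians, 2 members were lower in MT-1 with Comb, 2 higher in MT-1 for Comb against OR21 and 0 higher in MT-2 for Comb against EPZ, and the median of Comb minus untreated over all probe sets was -0.18 in place of -0.03. At 0.5 log2 unit, Comb had 2 members lower in MT-1 cells and 1 in MT-2 cells, OR21 had 2 lower in MT-1 and 2 higher in MT-2, and EPZ had 1 lower in MT-1 and 2 higher in MT-2. At that mark Comb against OR21 had 1 lower in MT-1 and 2 higher in MT-2, and Comb against EPZ had 2 higher and 1 lower in MT-2. The cause of the other shifts was not tested. With the 99th percentile of the negative controls as background (8.68 to 9.59), DUSP5 stood above it on 1 MT-1 and 4 MT-2 arrays, DUSP6 on 1 MT-1 array, DUSP10 on 1 MT-1 array, DUSP1 on 4 MT-2 arrays, and SPRY1 and SPRY2 on 0.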
